A study of Mus musculus with 12 samples.

Results

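Lung gene expression after 48 h of O3 was compared between mice that lack Nfkb1 and their wild-type controls. The sample titles placed 6 of the 12 arrays of the series in this comparison, 3 in the group Nfkb1KO-O3 and 3 in WT-O3, and each array held the left lung homogenate of 1 mouse. The 6 animals were male, 6 to 8 weeks old, and breathed 0.3 ppm O3 without interruption for 48 h in individual cages. Nfkb1KO-O3 mice were Nfkb1-/- (targeted allele Nfkb1tm1Bal) and WT-O3 mice were Nfkb1+/+ (B6129PF2/J). The other 6 arrays came from mice of both genotypes kept in filtered air in a separate chamber (WT-Air and Nfkb1KO-Air, 3 each) and serve here as the background of the genotype difference without O3. The deletion was constitutive and present in every cell of the animal, and both strains were of mixed background. DNA that flanks the targeted locus, and DNA elsewhere in the genome, can therefore differ between the groups together with the deletion.

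Nfkb1 encodes p105, a cytoplasmic inhibitor of NF-κB, which is processed to the DNA-binding subunit p50. Paired with RelA or c-Rel, p50 activates inflammatory genes, whereas p50 homodimers lack an activation domain and can occupy κB sites, and the related sites of interferon response genes, without activating them. O3 is an oxidant gas that injures the airway and alveolar epithelium and brings oedema, inflammatory cells and epithelial proliferation. Interferons act through transcription factors that bind the gamma-activated sequence (GAS) and the interferon-stimulated response element (ISRE) in the promoters of antiviral and antigen presentation genes.

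In Nfkb1-deficient lungs exposed to O3, 97 of 17569 genes were higher than in WT-O3 lungs and 30 were lower (limma, Benjamini-Hochberg adjusted p under 0.05 over all genes tested), which is 0.552% and 0.171% of the genes tested. The genes that rose included interferon-inducible GTPases, antiviral genes, antigen processing genes and genes of cytotoxic lymphocytes. Gbp6 was 10.6-fold higher, Gbp3 7.59-fold, Cd274 7.91-fold and Gzma 7.38-fold. Those that fell included Psca, a GPI-anchored surface protein of epithelial cells, and Edn1, the vasoconstrictor endothelin-1. At an unadjusted p under 0.05 the counts were 824 higher and 833 lower, and the median difference over all genes was 0.00 on the log2 scale. Of the called genes, 67 that were higher and 10 that were lower differed more than 2-fold, where a signal below the lower limit described below was counted at that limit. The signals of the 2 groups did not overlap for any of the 127 called genes, against 1635 genes (9.31%) that were higher and 1714 (9.76%) that were lower without overlap among all genes tested. The called genes were chosen by their difference between these same arrays, so their lack of overlap describes them and is no test. The adjusted p-values measure the spread between arrays, each a separate mouse, and an exact two-sided test of 3 against 3 arrays cannot go below p = 0.1.

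**Figure D1:**
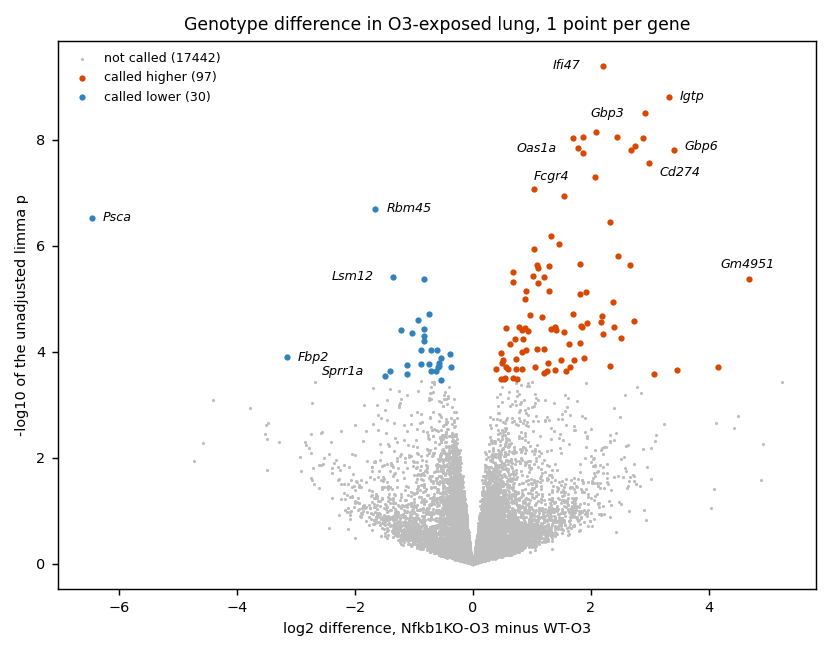
Log2 difference of Nfkb1KO-O3 minus WT-O3 (x axis) against -log10 of the unadjusted limma p (y axis), 1 point per gene. Orange points are the 97 genes called higher, blue points the 30 called lower and grey points the 17442 not called; Ifi47 and Igtp lie at the top and Psca lies far to the left at -6.45.

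Stretches upstream of the start sites of genes that rose are shown because the interferon-inducible genes led the list by p-value and their promoters can be read directly. They come from RefSeq promoters on GRCm38.p6, are written 5′ to 3′ on the strand of the gene, and begin with the gene and its region. Capitals mark matches to the ISRE core GAAANNGAA (TTCNNTTTC on the other strand) or to the GAS core TTCNNNGAA, which reads the same on both strands. A match describes letters and does not show that a factor binds there.
Igtp (chr11:58199486-58199555, plus strand): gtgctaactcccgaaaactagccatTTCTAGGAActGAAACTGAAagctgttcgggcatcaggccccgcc
Irgm1 (chr11:48871421-48871475, minus strand): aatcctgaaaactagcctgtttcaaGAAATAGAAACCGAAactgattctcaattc
Gbp2 (chr3:142620580-142620638, plus strand): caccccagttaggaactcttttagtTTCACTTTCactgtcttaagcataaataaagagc
Gbp3 (chr3:142559975-142560039, plus strand): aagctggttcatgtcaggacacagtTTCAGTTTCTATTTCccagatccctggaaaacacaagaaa
Gbp7 (chr3:142530205-142530317, plus strand): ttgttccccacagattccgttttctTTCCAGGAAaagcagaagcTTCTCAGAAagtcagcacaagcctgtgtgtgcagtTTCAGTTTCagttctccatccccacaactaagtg
Cd274 (chr19:29367337-29367395, plus strand): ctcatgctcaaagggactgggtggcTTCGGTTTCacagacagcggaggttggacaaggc
Oas1a (chr5:120907526-120907648, minus strand): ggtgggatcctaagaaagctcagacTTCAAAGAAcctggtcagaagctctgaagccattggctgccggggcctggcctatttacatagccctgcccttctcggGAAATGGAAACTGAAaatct
Gzma (chr13:113101014-113101102, minus strand): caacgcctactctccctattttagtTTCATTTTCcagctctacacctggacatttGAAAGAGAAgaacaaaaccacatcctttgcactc
Ifi47 (chr11:49076487-49076586, plus strand): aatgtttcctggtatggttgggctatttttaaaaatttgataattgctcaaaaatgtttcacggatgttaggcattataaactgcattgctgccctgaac
The stretch of Ifi47, the gene with the smallest p, holds neither core. Gbp3 has another start, whose stretch (chr3:142560256-142560355) holds neither core and is not printed. In windows from 250 bases before to 50 after the start, available for 74 of the 97 genes that rose, the ISRE core was found in 23 (31.1%) and the GAS core in 15 (20.3%). Among the 13972 tested genes with a window the shares were 8.72% and 8.56%. The κB consensus, sought on both strands, was in 5 of the genes that rose (6.76%) and in 8.16% of all genes with a window. Of the 23 genes that fell and had a window, 1 held the ISRE core, 3 the GAS core and 3 the κB consensus. The ISRE core was in 4 of 4 guanylate-binding protein genes (4 of their 5 windows), in 3 of 4 immunity-related GTPase genes and in 15 of 30 type I interferon-stimulated genes with a window.

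The immunity-related GTPases, which attack the vacuoles of intracellular pathogens, included Ifi47 and Igtp, the genes with the smallest p-values. Of 7 measured members 6 rose and none fell, with a median log2 difference of 2.44 over the 7. The normalised log2 signal of Ifi47 was 9.97, 10.07 and 10.03 on the WT-O3 arrays and 12.45, 12.24 and 12.01 on the Nfkb1KO-O3 arrays. Every knockout array lay far above every wild-type array, and the difference was 2.21 ± 0.13 (SE, n = 3 per group, limma adjusted p = 7.1e-06). Igtp read 9.74, 9.89 and 9.88 in WT-O3 lungs and 13.59, 13.40 and 12.51 in Nfkb1KO-O3 lungs. Replicate 3 was the lowest knockout array of both genes and still exceeded the highest wild-type array, and the Igtp difference was 3.33 ± 0.22 (SE, n = 3 per group, limma adjusted p = 1.4e-05). Irgm1 and Irgm2, which control where the other GTPases go, differed by 1.70 and 2.44, and Iigp1 by 2.75. Gm4951 was at least 19.4-fold higher, since 1 wild-type array lay at or below a log2 signal of 4.37, the 20th percentile used here as the lower limit. Irgc1, which is expressed mainly in testis, was below the lower limit on all 3 WT-O3 arrays and did not pass the test (limma adjusted p = 0.74).

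The guanylate-binding proteins, large GTPases of the same defence system, had 5 of 6 measured members higher and a median difference of 2.51. Gbp6 measured 8.22, 8.14 and 8.90 on the WT-O3 arrays and 12.43, 11.89 and 11.17 on the Nfkb1KO-O3 arrays, again without overlap. Its difference was 3.41 ± 0.27 (SE, n = 3 per group, limma adjusted p = 2.3e-05). Gbp3 differed by 2.92, Gbp7 by 2.09, Gbp8 by 1.88 and Gbp2 by 1.87. Gbp2b, the remaining member, ranged from 5.23 to 9.67 in WT-O3 lungs and from 11.60 to 12.48 in Nfkb1KO-O3 lungs, with a difference of 4.12 ± 1.08 (SE, n = 3 per group, limma adjusted p = 0.14). Nfkb1 shares its chromosome with Gbp2, Gbp2b, Gbp3 and Gbp7, at a distance of less than 20 Mb. Of the 193 genes tested in that interval 3 were called (1.55%), namely Gbp2, Gbp3 and Gbp7. Whether flanking DNA of the targeted strain takes part in the signal of these members or of Gbp2b was not tested.

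Other genes induced by interferon-gamma followed. Of 19 measured, 8 rose, none fell and the median difference was 0.92. Cd274 encodes PD-L1, the ligand that restrains T cells. It read 7.57, 7.71 and 7.87 on the WT-O3 arrays and 11.20, 10.89 and 10.01 on the Nfkb1KO-O3 arrays. The 2 groups were separated by more than 2 log2 units, and the difference was 2.98 ± 0.25 (SE, n = 3 per group, limma adjusted p = 3.5e-05). Ido1, the tryptophan-degrading dioxygenase, differed by 2.66, the nucleic acid sensor Zbp1 by 2.37, the activating IgG receptor Fcgr4 by 2.07 and the tryptophanyl-tRNA synthetase Wars by 1.03, and all 4 passed the test. Fcgr4 stands in the monocyte list too. The cytokine itself, Ifng, lay at 2.91, 3.29 and 1.61 in WT-O3 lungs and at 5.61, 5.35 and 4.59 in Nfkb1KO-O3 lungs. All 3 wild-type arrays were below the lower limit, against which the knockout mean was at least 1.76-fold higher, and Ifng did not pass the test (limma adjusted p = 0.072).

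Type I interferon-stimulated antiviral genes were higher as a broad set, with a smaller median difference than the GTPase lists. Single differences, called or not, ran from -0.22 to 4.43. Of 40 measured, 15 rose and none fell, 38 differences were positive, and the median was 0.75 against 0.00 over all genes. Oas1a, which makes the second messenger that switches on RNase L, measured 8.18, 7.90 and 8.15 in WT-O3 lungs and 9.71, 9.87 and 10.04 in Nfkb1KO-O3 lungs. The groups were more than 1 log2 unit apart, and the difference was 1.79 ± 0.14 (SE, n = 3 per group, limma adjusted p = 2.3e-05). Oas2 differed by 2.46, Oasl2 by 1.84, Rsad2 (viperin) by 2.40, Ifit1 by 1.30, Xaf1 by 1.33 and Rtp4 by 1.10. Smaller rises were measured for Parp9 (0.69), its partner Dtx3l (0.78) and the RNA sensor Ifih1 (0.57). Without Nfkb1KO-O3 replicate 1 the count of called members dropped from 15 to 5, and without WT-O3 replicate 2 to 8.

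Of 19 genes that carry the interferon signal or its feedback 4 rose and none fell. Irf7, the factor that amplifies type I interferon, read 8.32, 7.83 and 8.47 in WT-O3 lungs and 9.81, 9.68 and 9.54 in Nfkb1KO-O3 lungs. Its difference was 1.47 ± 0.17 (SE, n = 3 per group, limma adjusted p = 0.00075), and the groups stayed more than 1 log2 unit apart. Irf9, a DNA-binding factor of the type I interferon response, rose by 0.84, the feedback protease Usp18 by 1.03, and Nlrc5, the transactivator of MHC class I genes, by 2.33. Irf1 differed by 0.63 and did not pass the test (limma adjusted p = 0.093). Among 18 interferon cytokine and receptor genes, Il18 and its soluble inhibitor Il18bp rose by 0.83 and 1.71.

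Genes of MHC class I antigen processing had 6 of 17 measured members higher and none lower, with a median difference of 0.31. The 6 were the immunoproteasome subunits Psmb8 (1.32), Psmb9 (1.55) and Psmb10 (0.56), the peptide transporter chains Tap1 (1.87) and Tap2 (0.69), and the non-classical heavy chain H2-M3 (1.39). Psmb9 read 9.78, 9.75 and 9.95 on the WT-O3 arrays and 11.49, 11.27 and 11.37 on the Nfkb1KO-O3 arrays. The arrays within each group were close together and the groups lay far apart. For Tap1, 3 of 4 probe sets had the same direction, and the probe set with the highest signal is given here. In the MHC class II list, 1 of 11 measured genes rose, the lysosomal protease Ctss (0.69).

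Genes of NK cells and cytotoxic lymphocytes made up the other large group that was higher. Of 23 measured, 11 rose and none fell, and the median difference was 1.43. Granzyme A (Gzma), a protease of cytotoxic granules, read 8.28, 8.33 and 8.76 in WT-O3 lungs and 11.40, 10.91 and 11.71 in Nfkb1KO-O3 lungs. The lowest knockout array was more than 2 log2 units above the highest wild-type array, and the difference was 2.88 ± 0.22 (SE, n = 3 per group, limma adjusted p = 2e-05). Gzmb differed by 2.68, the granule protein Nkg7 by 1.82 and the chemokine Ccl5 by 2.17. Among receptors, Klrc1 was at least 6.37-fold higher, and Klrd1, Klrk1, Klrg1 and Ncr1 differed by 1.54, 1.40, 1.20 and 1.28. Eomes and Tbx21, the T-box factors of this lineage, differed by 1.81 and 1.63. The T cell list gave 0 calls among 20 measured genes (limma, 0 also at an unadjusted p under 0.05), with a median of 0.21. The B cell and plasma cell list gave 0 among 14 (limma, 3 lower and 0 higher at an unadjusted p under 0.05), with a median of -0.12. The summed linear signal of the NK list was 4730 to 5780 on the WT-O3 arrays and 8480 to 13400 on the Nfkb1KO-O3 arrays. In a homogenised lung, more cells of a type and more RNA per cell cannot be told apart. Without WT-O3 replicate 2, Nfkb1KO-O3 replicate 1 or Nfkb1KO-O3 replicate 3 the number of called members was 3, 4 and 5, and without WT-O3 replicate 1 it was 6.

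**Figure D2:**
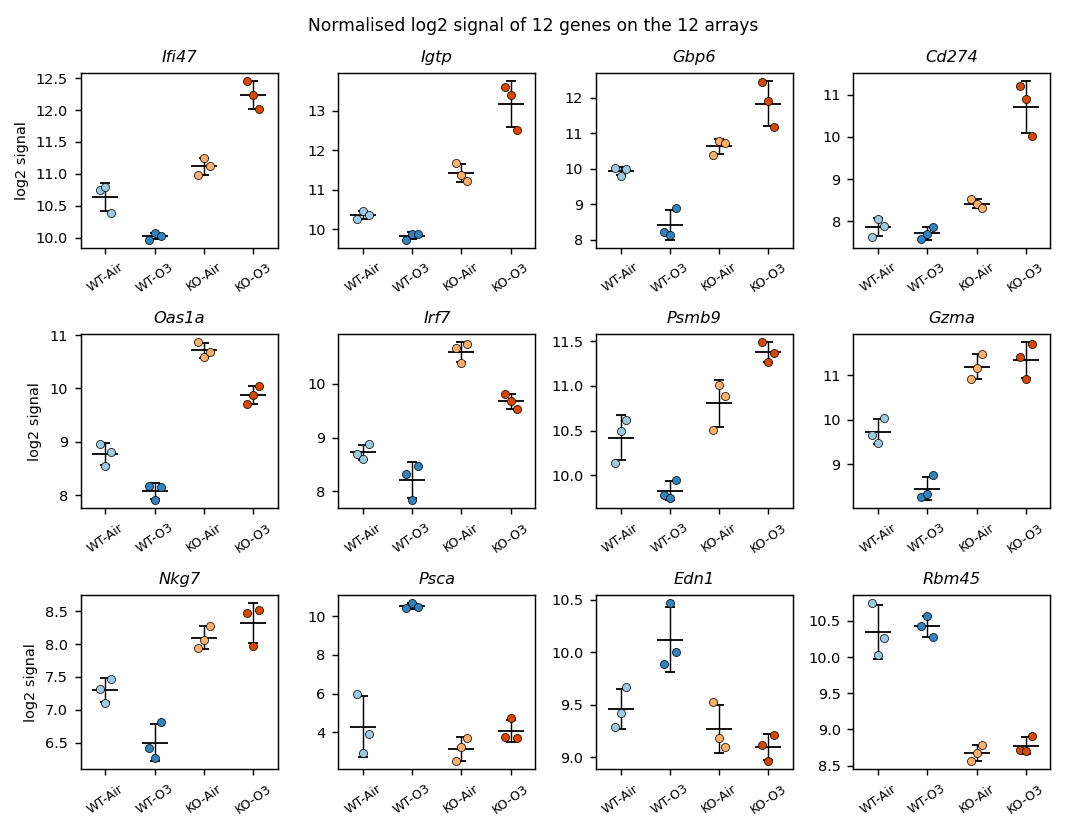
Normalised log2 signal (y axis) of 12 genes on all 12 arrays, by group (KO stands for Nfkb1KO). Points are mice, horizontal bars are group means and vertical bars SD (n = 3). In every panel the 3 WT-O3 points and the 3 KO-O3 points occupy separate ranges, as they did for every called gene.

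Myeloid genes rose in smaller numbers. Of 18 neutrophil markers 3 were higher (median 0.80): the calcium-binding alarmin subunits S100a8 (1.30) and S100a9 (1.41) and the C-type lectin Clec4e (2.51). S100a8 read 9.56, 9.65 and 9.39 in WT-O3 lungs and 10.79, 11.21 and 10.50 in Nfkb1KO-O3 lungs, with no overlap. Of 16 monocyte markers 4 were higher (median 0.71), namely Fcgr4 (2.07), Plac8 (1.21), Ms4a4c (1.81) and Ifitm6 (1.94). The summed linear signal of the monocyte list was 38500 to 40000 in WT-O3 lungs and 43700 to 50700 in Nfkb1KO-O3 lungs, and that of the neutrophil list 10700 to 13300 and 12500 to 18300. The macrophage list gave 0 calls among 22 measured genes (limma, 1 higher and 1 lower at an unadjusted p under 0.05). Over the 24 alternatives at most 1 member was called higher and at most 1 lower, the latter under 4 of them. The scavenger receptor Marco of this list had a difference of -0.86 after O3 and did not pass the test (limma adjusted p = 0.14). In filtered air its difference was -1.76 (limma adjusted p = 0.0046). Outside the lists, the signalling adaptors Tyrobp (0.85) and Fcer1g (1.05) and the IgG receptor Fcgr3 (0.88), which serve both NK and myeloid cells, were higher as well.

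The dendritic cell list was mixed. The 2 members that rose, Bst2 (0.91) and Ccl5 (2.17), are also an interferon-induced tetherin and a product of cytotoxic lymphocytes. None of the other members passed the test, although under 10 of 24 alternatives 1 to 4 members were called lower. Of the differences, 14 of 21 were negative and the median was -0.38. Without overlap 9 genes were lower, against 9.76% of all genes tested. The CCR4 ligand Ccl22 read 7.44, 8.15 and 7.78 in WT-O3 lungs and 5.90, 5.98 and 6.41 in Nfkb1KO-O3 lungs. All 3 knockout arrays lay below the wild-type arrays, and the difference was -1.69 ± 0.36 (SE, n = 3 per group, limma adjusted p = 0.06). Ccl17, the other ligand of that receptor, differed by -1.23, the integrin Itgae by -1.25 and the actin bundler Fscn1 by -1.25, with limma adjusted p-values of 0.086 to 0.094.

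Among 30 canonical targets of NF-κB 2 rose, the acute-phase protein Saa3 and Ccl5, against 0.552% of all genes tested. The median difference of the list was 0.24. Over the 24 alternatives 0 to 3 members were called higher and at most 1 lower, the latter under 4 of them. Saa3 read 10.62, 10.17 and 10.96 in WT-O3 lungs and 12.50, 11.89 and 13.11 in Nfkb1KO-O3 lungs. The groups did not overlap, and the difference was 1.92 ± 0.26 (SE, n = 3 per group, limma adjusted p = 0.0032). In filtered air the Saa3 difference was 3.02. Il6 read 6.88, 7.61 and 7.23 against 8.62, 8.41 and 8.17, a difference of 1.16 ± 0.37 (SE, n = 3 per group, limma adjusted p = 0.26), and Il1b differed by 0.62 (limma adjusted p = 0.23). Among 20 NF-κB subunits and regulators there were 0 calls (limma, 1 higher and 3 lower at an unadjusted p under 0.05) with a median of -0.08, and the inhibitor Nfkbie, called lower under 4 of 24 alternatives, had the smallest p of them, with a difference of -1.05 ± 0.28 after O3 (SE, n = 3 per group, limma adjusted p = 0.14) and -1.03 in air. The level of Nfkb1 itself was not analysed here, and the labels of genotype could not be set against it.

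**Figure D3:**
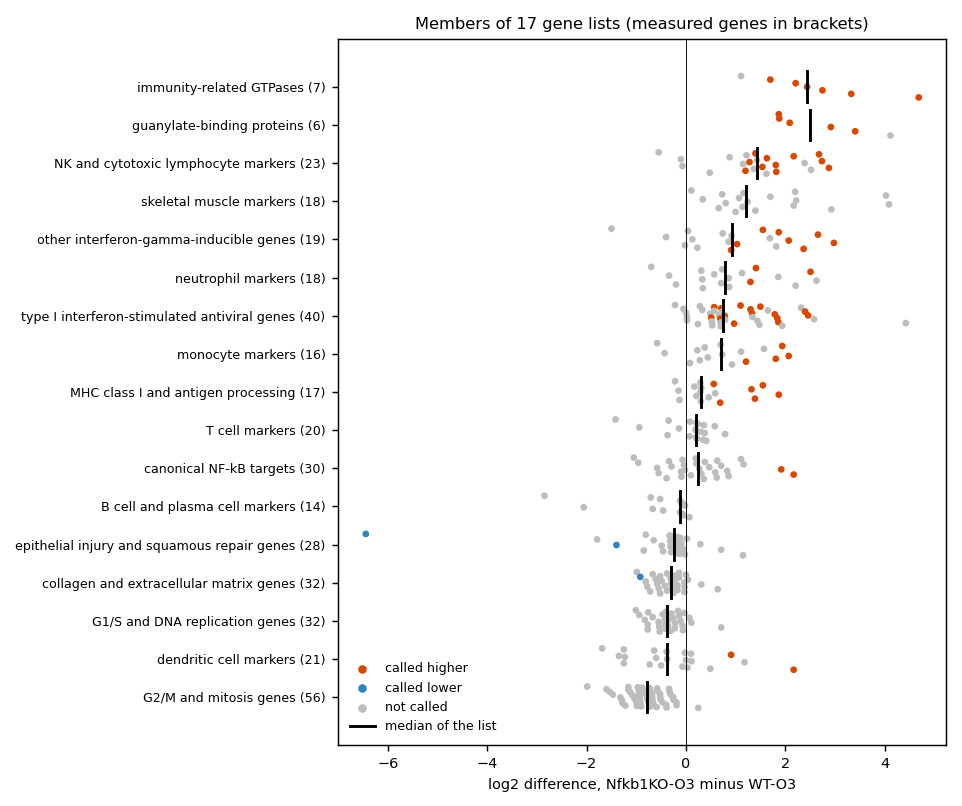
Log2 difference of Nfkb1KO-O3 minus WT-O3 (x axis) for the measured members of 17 gene lists (y axis, number of genes in brackets), with genes called higher in orange, called lower in blue and not called in grey. Black bars are list medians, which run from 2.51 for the guanylate-binding proteins to -0.78 for the G2/M and mitosis genes, where no point is coloured.

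Psca had the most negative difference of all genes tested. It read 10.42, 10.69 and 10.46 in WT-O3 lungs and 3.75, 4.74 and 3.71 in Nfkb1KO-O3 lungs. The signal of 2 knockout arrays lay below the lower limit, so that Psca was at least 65.1-fold lower (log2 difference -6.45 ± 0.66, SE, n = 3 per group, limma adjusted p = 0.00028). In filtered air it read 6.01, 2.93 and 3.93 in wild-type and 2.51, 3.25 and 3.72 in knockout lungs, so that 2 of 3 wild-type and all 3 knockout arrays were below that limit. Sprr1a, a cornified envelope protein of squamous repair, read 11.01, 11.27 and 11.01 against 9.71, 9.59 and 9.80. Its difference was -1.40 ± 0.27 (SE, n = 3 per group, limma adjusted p = 0.035). These were the 2 calls among 28 epithelial injury and repair genes, of which 24 had negative differences (median -0.24). The keratin Krt17 was below the lower limit on all 3 Nfkb1KO-O3 arrays and at least 1.37-fold lower than in WT-O3 lungs, Krt18 differed by -0.32, and neither passed the test (limma adjusted p of 0.30 and 0.079).

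The remaining genes that fell belonged to several roles. Edn1 ranged from 9.89 to 10.47 in WT-O3 lungs and read 9.12, 8.96 and 9.21 in Nfkb1KO-O3 lungs, without overlap, with a difference of -1.03 ± 0.17 (SE, n = 3 per group, limma adjusted p = 0.012). The catalytic subunit of glutamate-cysteine ligase, Gclc, which limits glutathione synthesis, fell by 0.83. It was the 1 call among 38 NRF2 and antioxidant genes. The muscle-type fructose bisphosphatase Fbp2 was lower by 3.15, at 6.21, 7.04 and 6.24 in Nfkb1KO-O3 lungs against 10.80, 9.39 and 8.75 in WT-O3 lungs. In air its means were 6.37 in wild-type and 6.28 in knockout lungs. Its mean after O3 minus that in air was 3.28 in wild-type and 0.21 in knockout lungs, and its genotype by O3 interaction was not called (limma adjusted p = 0.64). The protease inhibitor Tfpi2 fell by 1.11 and collagen VI chain Col6a3 by 0.92. Of the xenobiotic genes, the receptor Ahr and the monooxygenase Fmo1 fell by 0.57 and 0.39, while the Ahr target Cyp1a1 was higher by 2.19. In air Cyp1a1 differed by 1.41 (limma adjusted p = 0.12). Its mean after O3 minus that in air was negative in both genotypes, at -2.77 in wild-type and -1.99 in knockout lungs. The 2 probe sets of Ahr had opposite directions. The RNA-binding protein Rbm45 fell by 1.65 and had almost the same difference in air (-1.67). Its WT-O3 arrays read 10.43, 10.57 and 10.28 and its Nfkb1KO-O3 arrays 8.72, 8.70 and 8.91. Lsm12, Riok2 and the transcription factor Klf11 fell by 1.35, 1.22 and 0.82. Genes that lay in no list numbered 21 of the 30 that fell and 30 of the 97 that rose.

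The differences of cell division genes were nearly all negative, but none of them was called. Among 56 G2/M and mitosis genes there were 0 calls (limma, 27 lower and 0 higher at an unadjusted p under 0.05). Their differences were negative for 55 genes with a median of -0.78. Without overlap 34 were lower, against 9.76% of all genes tested. Cdk1, the mitotic kinase, read 8.91, 9.11 and 9.23 in WT-O3 lungs and 7.66, 7.11 and 8.60 in Nfkb1KO-O3 lungs. The third knockout array lay closest to the wild-type range, and the difference was -1.29 ± 0.38 (SE, n = 3 per group, limma adjusted p = 0.21). Hmmr, Kif20a and Cenpf, which act on the mitotic spindle, differed by -1.16, -1.60 and -1.16 (limma adjusted p of 0.15 to 0.21). The mean log2 signal of the list was 7.93, 8.17 and 8.21 in WT-O3 lungs and 7.18, 6.88 and 7.84 in Nfkb1KO-O3 lungs. In air the knockout arrays spread from 6.56 to 7.85 around the wild-type range of 6.95 to 7.23, and the median genotype difference there was 0.19. The median change from air to O3 was 1.02 in wild-type and 0.13 in knockout lungs, and no gene of the list was called for the interaction described below. Without Nfkb1KO-O3 replicate 2 the list median was -0.60 and without replicate 3 it was -1.09. With weights for the arrays 7 of the 56 genes were called lower, and without WT-O3 replicate 1 or Nfkb1KO-O3 replicate 3 there was 1. The 32 G1/S and replication genes gave 0 calls too (limma, 7 lower and 0 higher at an unadjusted p under 0.05), with a median of -0.38 and 29 negative differences.

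Most collagen and matrix genes had negative differences as well. Col6a3 was the 1 call among 32, but 28 differences were negative and the median was -0.31. Without overlap 19 genes were lower, against 9.76% of all genes tested. Col5a1 and Col1a2 differed by -0.72 and -0.42 (limma adjusted p of 0.13 and 0.17). Of 21 clock and output genes 1 rose, the repressor Nfil3 (1.26). Nr1d2 and Dbp, which cycle in the opposite phase to it, differed by -0.71 and -1.08 (limma adjusted p of 0.07 and 0.28). In air the signs were the other way, with -0.52 for Nfil3, 0.06 for Nr1d2 and 0.96 for Dbp (limma adjusted p of 0.46, 0.91 and 0.33). Surfactant and airway genes were at the top of the signal range in both O3 groups. The mean log2 signals in WT-O3 and Nfkb1KO-O3 lungs were 14.36 and 14.39 for Sftpc, 14.83 and 14.85 for Scgb1a1 and 14.51 and 14.50 for Ager. The endothelial gene Pecam1 read 12.01 and 11.92. These defining lung markers were thus present at high signal. None of the lists of alveolar (21 genes), ciliated (18 genes) and endothelial (26 genes) genes held a call (limma, with 0, 0 and 1 higher and 2, 0 and 5 lower at an unadjusted p under 0.05).

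Muscle transcripts varied between single arrays. All 18 skeletal muscle markers had positive differences (median 1.20), with 0 calls (limma, 2 higher and 0 lower at an unadjusted p under 0.05). Their mean log2 signal was 6.27, 5.74 and 5.77 in WT-O3 lungs and 7.39, 9.27 and 5.95 in Nfkb1KO-O3 lungs, and the median difference was 0.47 without Nfkb1KO-O3 replicate 2 and 2.13 without replicate 3. Without WT-O3 replicate 1 it was 1.48 and 1 marker was called higher. The 16 cardiac markers averaged 10.52, 8.57 and 10.52 against 10.52, 12.08 and 8.84, and their median difference went from 0.56 to -0.24 without Nfkb1KO-O3 replicate 2 and to 1.41 without replicate 3. Without Nfkb1KO-O3 replicate 2, 99 genes were called, 84 higher and 15 lower, and 89 of the 127 were among them. The share of muscle in any other result was not tested. Over all probe sets the 6 O3 arrays had rank correlations of 0.952 to 0.969 with each other. In air, Nfkb1KO-Air replicate 1 had a median signal of 180 against 99.1 to 121 on the other 11 arrays, and WT-Air replicate 3 had the highest skeletal muscle signal (10.95). With both left out 163 genes were called after O3, 110 higher and 53 lower, among them 120 of the 127.

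**Figure D4:**
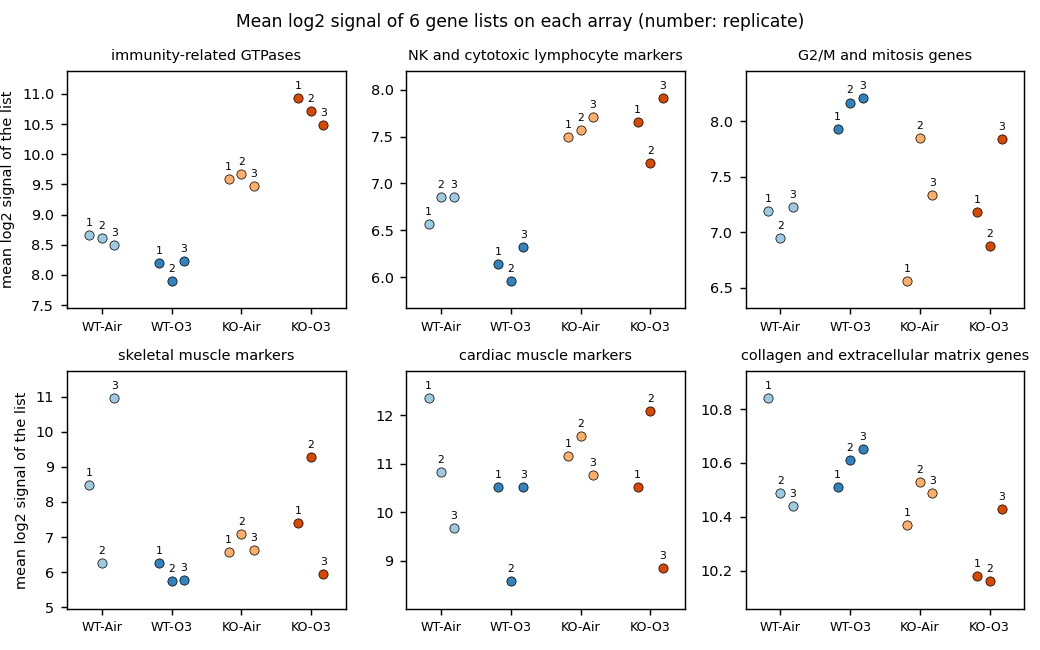
Mean log2 signal of the measured genes of 6 lists (y axis) on each array, by group, with replicate numbers above the points (KO stands for Nfkb1KO). The GTPase and NK lists separate WT-O3 from KO-O3 completely, whereas the muscle lists vary between single arrays. KO-O3 replicate 2 and WT-Air replicate 3 are high in the skeletal list, and WT-O3 replicate 2 and KO-O3 replicate 3 are low in the cardiac list.

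The genotype difference was also measured in filtered air, and the difference between the 2 settings was tested as a genotype by O3 interaction. It was called for 6 of 17569 genes (0.0342%), and all 6 were interferon-inducible and had a larger difference after O3. They were Ifi47, Igtp, Gbp2, Gbp6, Gbp7 and Cd274. For Ifi47 the difference was 0.48 in air and 2.21 after O3, an interaction of 1.73 ± 0.18 (SE, n = 3 per group, limma adjusted p = 0.007). For Cd274 it was 0.56 in air and 2.98 after O3. In air Cd274 read 7.63, 8.05 and 7.89 in wild-type and 8.53, 8.42 and 8.31 in knockout lungs, so that the 3 Nfkb1KO-O3 arrays were the only ones above 10. The mean Cd274 signal after O3 minus that in air was -0.14 in wild-type mice and 2.28 in knockout mice. For Gbp2 the 2 genotypes lay together in air, with means of 11.25 and 11.34, and moved apart after O3. The O3 change was -0.95 in wild-type and 0.83 in knockout lungs. The GTPase list as a whole had a median difference of 0.90 in air, against 2.44 after O3.

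The antiviral gene Oas1a differed by 1.95 in air and 1.79 after O3, and Irf7 and Usp18 of the signalling list by 1.87 and 1.47 and by 1.02 and 1.03. The median of the type I list was 0.77 in air and 0.75 after O3. The interactions of Oas1a, Irf7 and Usp18 were -0.16 ± 0.20, -0.40 ± 0.23 and 0.01 ± 0.17 (SE, n = 3 per group). For Gzma the differences were 1.45 and 2.88, and the interaction of 1.43 ± 0.31 did not pass the test (SE, n = 3 per group, limma adjusted p = 0.32). Sprr1a and Edn1 had interactions of -2.05 and -0.84, and neither passed it (limma adjusted p of 0.17 and 0.65). That of Psca, which rests on signals below the lower limit, is not given. Of the 127 genes called after O3, 122 had the same direction in air, 94 of those that rose and 28 of those that fell. These genes were chosen by their difference after O3, so this count describes them and is no test.

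**Figure D5:**
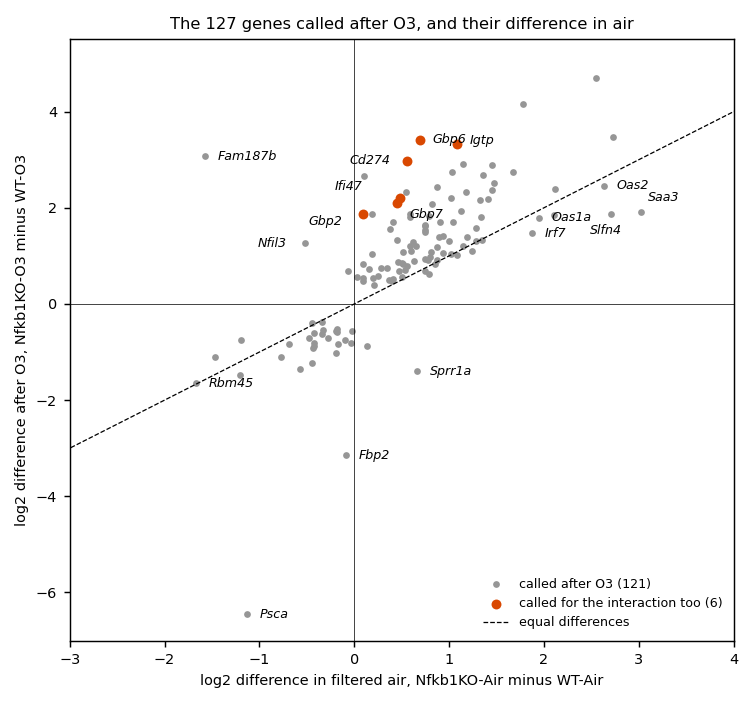
Log2 genotype difference in filtered air (x axis, Nfkb1KO-Air minus WT-Air) and after O3 (y axis, Nfkb1KO-O3 minus WT-O3) for the 127 genes called after O3, with a dashed line of equal differences. The 6 genes called for the interaction (orange) lie above the line, Oas1a and Irf7 lie near it, and Psca lies at the bottom.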

How the data were processed

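Total RNA of the left lung of each mouse was hybridised to Affymetrix Mouse Genome 430 2.0 arrays, 1 colour, 3 arrays in each of 4 groups taken from the sample titles. The deposited values were linear signal intensities per probe set, which the authors had computed with MAS5 in Affymetrix Expression Console (versions not given in the sources used here) and scaled to a trimmed mean of 500 on every array. Detection calls were not used, and precision is limited by there being 3 arrays a group.

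A floor of 1 was applied to the signals before taking log2 and normalising by quantiles over the 12 arrays. Of 45101 probe sets, 64 controls were set aside and 42559 exceeded the 20th percentile on 1 array or more. The annotation gave 1 gene symbol for 34958 probe sets, several for 932 and none for 9211, and 34754 of the first were found in the RefSeq table of GRCm38.p6. Probe sets with several symbols or none were left out. The probe set with the highest mean stood for each gene, giving 17569 genes. Of the 51 called genes with several probe sets, all pointed the same way in 40. For 8 called genes, Gbp2 and Wars among them, the probe set was of the _x_at type. Whether their signals include related transcripts was not tested.

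Group means were fitted over the 12 arrays in limma 3.58.1 (R 4.3.3), with a mean-dependent trend (12.6 degrees of freedom) and Benjamini-Hochberg adjustment over all genes, and calls were made where the adjusted p was below 0.05. The contrasts were Nfkb1KO-O3 minus WT-O3 and its difference from the same contrast in air. The fit was first tested on simulated data holding known changes. Where the dimmer group had an array at or below a log2 signal of 4.37, a lower bound replaces the fold.

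The comparison and the 43 gene lists were chosen with earlier results of these data known. Lists are described by counts and medians. Over all genes tested 0.552% were called higher and 0.171% lower, the shares beside which each count of called members stands. Named genes were the 25 largest rises and 25 largest falls among called genes with separate arrays and a higher mean above the median gene, the 5 genes of every list with the lowest p-values, all genes called for the interaction and called genes within 20 Mb of Nfkb1. Other genes, such as Il6, Ido1, Klrd1, Gbp2b and Tyrobp, were picked with their values in view. The alternatives were another normalisation, offset, filter, probe set rule, moderation, array set or weighting, a replicate block, and leaving out each array. Leaving out a pair of air arrays was added after the data were seen.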

Additional observations from a re-analysis of the deposited data

Results flagged for a closer look

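The genotype difference of 6 genes was larger after O3 than in filtered air by the limma test of the interaction (Benjamini-Hochberg adjusted over 17569 genes), which is what singled them out. The interaction on the log2 scale was 2.72 for Gbp6, 2.42 for Cd274, 2.25 for Igtp, 1.78 for Gbp2, 1.73 for Ifi47 and 1.65 for Gbp7. Their adjusted p-values were 0.031, 0.037, 0.029, 0.014, 0.007 and 0.029. Under 23 alternatives Ifi47 was called in 21, Gbp2 in 16, Igtp in 10 and Cd274, Gbp6 and Gbp7 in 9 each, and the interaction of all 6 remained positive, the lowest value being 1.50 for Gbp7. Gbp2 and Gbp7 lie within 20 Mb of Nfkb1.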

How the results depend on the processing

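Of the 127 genes called after O3, 126 had the same direction under all 24 alternatives and 29 were called under all of them, among them Ifi47, Igtp, Gbp6, Cd274, Oas1a, Gzma, Psca and Rbm45. The exception in direction was Smim10l1, at 0.38 for the mean of its probe sets against -0.61 for the brightest. Less stable calls included Ctss, called under 10 of the 24, Sprr1a under 13, and Ahr, Fmo1, Nfil3 and Tfpi2 under 14 each. Centring arrays on medians gave 78 called genes and dropping the trend of the spread 66. Other fits gave 55 with a 2-factor analysis of variance without moderation and 395 with array weights. The 6 O3 arrays fitted alone gave 168, 108 higher and 60 lower, among them 102 of the 127. The count ranged from 51 to 149 when arrays were left out in turn. It was 51 without Nfkb1KO-O3 replicate 1, 61 without WT-O3 replicate 2 and 80 without Nfkb1KO-O3 replicate 3. The cause was not tested.

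For the interaction, 6 genes were called, against 10 with arrays centred on their medians, 11 with MAS5 scaling alone and 15 with array weights. It was 0 without the trend (limma, 993 genes at an unadjusted p under 0.05) and 0 without moderation (1053). Leaving out arrays in turn gave 1 to 9. The count was 1 without WT-O3 replicate 1 or 2 and without Nfkb1KO-Air replicate 1 or 3, and 2 without WT-Air replicate 2, Nfkb1KO-Air replicate 2 or Nfkb1KO-O3 replicate 1 or 2.

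The replicate numbers were not treated as pairs of O3 arrays. Deviations of same-numbered arrays correlated at -0.0131, -0.0836 and 0.0276, and those of differently numbered arrays at -0.105 to 0.113. With 3 arrays a group these values cannot exclude pairing. With the replicate number as a block 100 genes were called after O3 and 4 for the interaction. A signal below a log2 value of 4.37 gives a bound and no fold.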
